A study of Homo sapiens with 9 samples.

Results

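AQP3, PADI3, UPK2, LAPTM5, HCLS1 and CORO1A are 6 genes that were picked because their transcripts were much lower in HSC-3 cells labelled MPTN than in those labelled MPTN24. They are 6 of the 60612 genes in the deposited tables, and all 6 were among the 16990 with enough counts to be tested. HSC-3 is a human line of oral squamous cell carcinoma, a cancer of the stratified lining of the mouth. RNA was sequenced from 3 libraries each of MPTN, MPTN24 and WT, all of this 1 line. MPTN was taken as the line that had become resistant to apatinib, an inhibitor of the VEGF receptor kinase, MPTN24 as cells exposed to the drug for 24 h, and WT as the parental line. The labels do not spell out MPTN and MPTN24, and they do not say whether MPTN came from a single clone or whether the drug was present at its harvest. They do not say what separated the replicates either, so p-values measure only the spread between these samples, which may be technical.

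The 6 genes fall into a set known from lining epithelia and a set known from blood cells. AQP3 is a membrane channel for water and glycerol in stratified epithelia, PADI3 is an enzyme of hair follicle and epidermis that turns arginine residues of proteins into citrulline, and UPK2 is a subunit of the uroplakin plaques on the surface of the bladder lining. LAPTM5 is a lysosomal membrane protein of leukocytes, HCLS1 is the leukocyte relative of the actin-binding protein cortactin, and CORO1A is the coronin of blood cells, which binds actin filaments and the Arp2/3 complex that branches them.

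The libraries held 60383313 to 98890929 estimated counts and 19947 to 21374 genes with a count. All 10 squamous carcinoma markers examined were among the tested genes, and KRT5, a keratin of basal squamous cells, was at 2062 ± 9.01 FPKM in MPTN, 2383 ± 72.3 FPKM in MPTN24 and 2672 ± 610.1 FPKM in WT (mean ± SD, n = 3 here and below). Of these 10, 3 were called higher and 1 lower in MPTN than in MPTN24, 2 and 4 in MPTN than in WT, and 0 and 4 in MPTN24 than in WT, where 14.5%, 36.4% and 23.2% of all tested genes were called in either direction. EPCAM was lower in MPTN than in WT (log2 change -1.01, adjusted p = 6.93e-06 in edgeR). It was also lower than in MPTN24 (log2 change -0.59, adjusted p = 0.0017 in edgeR). DSP was lower in MPTN than in WT (log2 change -0.81, adjusted p = 0.000871 in edgeR). KRT17 was higher in MPTN than in MPTN24 (log2 change 1.33, adjusted p = 0.00449 in edgeR). PKP1 was higher in MPTN than in WT (log2 change 0.54, adjusted p = 0.000368 in edgeR). Several other calls were fragile: KRT6A in MPTN against MPTN24 did not hold in 11 of 19 other settings, KRT17 in MPTN against WT in 9, and KRT14 in MPTN24 against WT in 7. FPKM are fragments scaled to transcript length and library depth. Of 18 blood cell markers, 10 had no count in any library, among them PTPRC, CD3E and TYROBP, and CSF1R, a receptor kinase, was the 1 that could be tested, at 1.36 ± 0.179 FPKM in MPTN, 1.18 ± 0.229 FPKM in MPTN24 and 1.11 ± 0.243 FPKM in WT. The other 17 summed to 0 to 9 counts per library in MPTN, 11 to 28 in MPTN24 and 1 to 17 in WT. On the third principal component WT 1 (68.5) lay far from the other WT libraries (-33 and -32.8), and values without it are given where it moves a result. Fewer cells with a transcript and less of it in each cell cannot be told apart in these bulk libraries.

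Of the 6 genes, 4 had an upstream sequence in the RefSeq promoter table (GRCh38.p14). The 250 bases before the start that RefSeq gives are shown for 3 of them. AQP3 and LAPTM5 were called higher in MPTN24 than in WT, as was CORO1A, whose stretch is not shown, and HCLS1 was not called. Capitals mark matches on either strand to the letters of 4 motifs. The Sp1 motif was searched as GGGCGGG and the TATA box as TATAAA. The AP-1 motif was searched as TGANTCA and the TEAD motif as GGAATG.
AQP3: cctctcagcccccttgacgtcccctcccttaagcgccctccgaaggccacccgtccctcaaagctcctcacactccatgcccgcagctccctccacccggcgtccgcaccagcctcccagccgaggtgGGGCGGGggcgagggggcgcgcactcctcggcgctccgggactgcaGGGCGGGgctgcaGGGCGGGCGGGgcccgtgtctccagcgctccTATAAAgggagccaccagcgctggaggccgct
LAPTM5: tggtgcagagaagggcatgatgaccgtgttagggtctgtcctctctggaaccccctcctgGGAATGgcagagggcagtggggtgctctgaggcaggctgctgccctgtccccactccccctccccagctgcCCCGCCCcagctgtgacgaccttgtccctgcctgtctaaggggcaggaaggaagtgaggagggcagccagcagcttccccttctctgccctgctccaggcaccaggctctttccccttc
HCLS1: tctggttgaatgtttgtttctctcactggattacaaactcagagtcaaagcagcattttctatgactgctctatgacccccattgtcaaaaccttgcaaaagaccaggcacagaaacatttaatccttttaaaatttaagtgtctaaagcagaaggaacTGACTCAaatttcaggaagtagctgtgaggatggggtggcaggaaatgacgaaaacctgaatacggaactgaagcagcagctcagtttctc

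The AQP3 stretch (chr9:33447594-33447843, minus strand) was 73.6% G and C with 23 CG pairs, and held TATAAA 32 to 27 bases before the start and 4 Sp1 matches, of which the last 2 overlap. The LAPTM5 stretch (chr1:30757775-30758024, minus strand) was 64.8% G and C with 3 CG pairs, 1 Sp1 match and 1 TEAD match. The HCLS1 stretch (chr3:121660904-121661153, minus strand) was 41.2% G and C with 2 CG pairs, and its AP-1 match lay 91 to 85 bases before the start. The medians over 35116 promoters were 58% G and C and 11 CG pairs. Of those promoters, 31.5% hold the Sp1 letters, 10.7% the TATA box letters, 11.9% the TEAD letters and 6.57% the AP-1 letters. The CORO1A stretch (chr16:30183352-30183601, plus strand), which is not printed, was 68% G and C with 23 CG pairs and 1 Sp1 match. It lies wholly inside the gene as the deposited tables place it, 525 to 774 bases after their start, since RefSeq places the start later, and 24 bases of the HCLS1 stretch and 3 of the AQP3 stretch also lie inside the deposited spans. Another 7 motifs were not met in these 4 stretches, namely GAGGAAG (PU.1), AACCNGGTT (GRHL), CACGTG (E-box), CCGGAAG (ETS), TTCCNGGAA (STAT) and the NF-kB and nuclear receptor direct repeat motifs, which 0.0171% to 11.2% of all promoters hold.

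The fall by which the genes were chosen is a description, with no test. In this comparison 6.7% of all tested genes were called lower and 7.85% higher (edgeR adjusted p below 0.05), and since the genes were picked on it nothing is read from their count. Mean levels in MPTN were 11.5% of those in MPTN24 for UPK2, 13.1% for PADI3, 15.7% for AQP3, 22% for LAPTM5, 25.5% for HCLS1 and 33.2% for CORO1A. Among 12893 genes at 1 CPM (counts scaled to a common library size) or more in MPTN24, 169 had a fitted fall of 2-fold or more. By the size of the fall UPK2 ranked 6, PADI3 7, AQP3 14, LAPTM5 23, HCLS1 28 and CORO1A 46, so other genes had falls as large. On log2 of FPKM plus 1 the order among the 6 differed: AQP3 had the largest log2 fall (-2.58), before PADI3 (-2.29), UPK2 (-2.07), HCLS1 (-1.69), LAPTM5 (-1.55) and CORO1A (-1.52). With 0.1 added the order of the fitted falls was kept: UPK2 (-2.96), PADI3 (-2.80), AQP3 (-2.61), LAPTM5 (-2.06), HCLS1 (-1.93) and CORO1A (-1.62).

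The comparisons with WT say whether a gene was raised at 24 h or was already high. They share libraries with the choice of genes, so their p-values are no independent support. In MPTN24 against WT, 3 of the 6 genes were called higher (AQP3, LAPTM5 and CORO1A), where 11.1% of all tested genes were, and 0 were called lower, where 12.1% were. In MPTN against WT, 5 of the 6 were called lower (all but PADI3), where 18.1% of all tested genes were, and 0 were called higher, where 18.3% were. LAPTM5 was clearly above WT at 24 h. AQP3 and CORO1A were above WT at 24 h while WT was already 3.45-fold and 2.22-fold above MPTN, HCLS1 was already high in WT and not called at 24 h, and UPK2 was high in WT with overlapping libraries. For PADI3 the answer depended on 1 WT library.

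**Figure D1:**
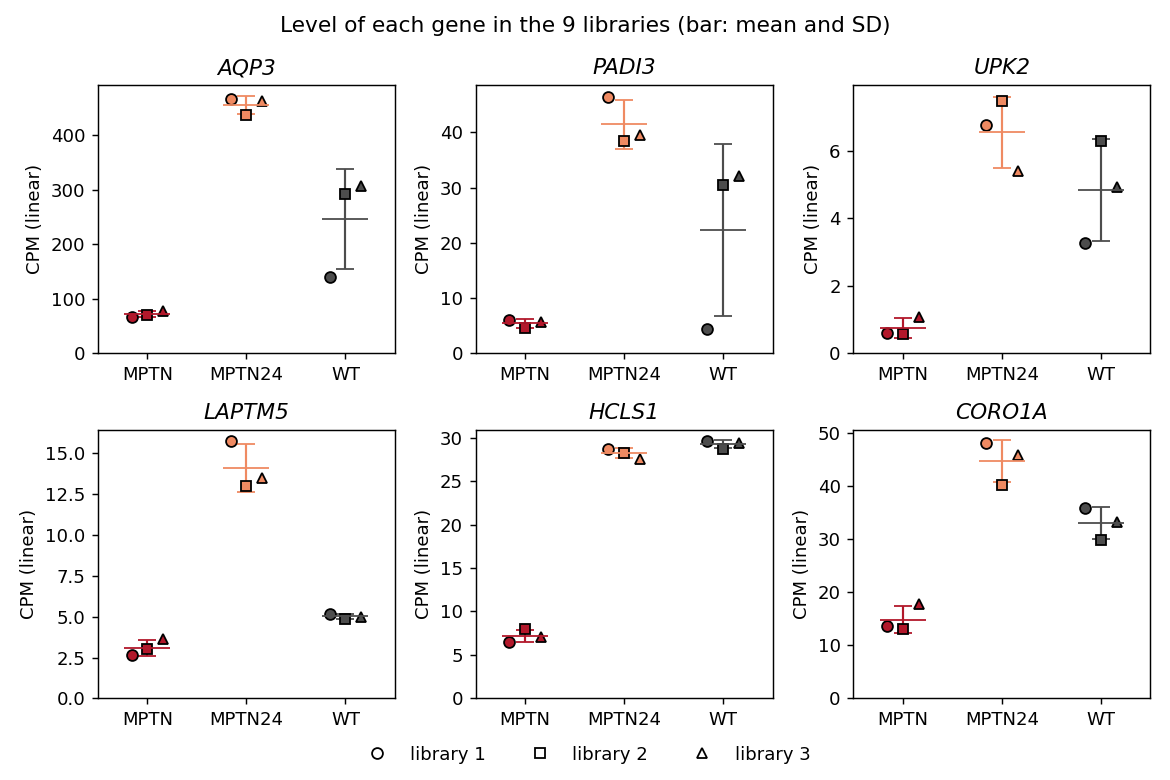
Level of the 6 genes in CPM (linear axis from 0) in MPTN, MPTN24 and WT, with 1 symbol per library and the mean with its SD (n = 3). MPTN is lowest except in PADI3, where WT 1 lies at 4.44 CPM, and WT 1 is also the lowest WT library for AQP3 and UPK2.

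AQP3 (ENSG00000165272, chromosome 9, 33441156 to 33447596, minus strand) had the highest level per length of the 6 genes, at 37.8 ± 1.31 FPKM in MPTN, 231 ± 6.59 FPKM in MPTN24 and 121 ± 48.2 FPKM in WT. The MPTN mean lay above that of 87.9% of tested genes and the MPTN24 mean above that of 98.3%. Its libraries stood at 66.2, 71.1 and 77.3 CPM in MPTN, 466, 437 and 464 CPM in MPTN24, and 140.3, 292 and 307 CPM in WT. The groups did not overlap, MPTN was lowest and MPTN24 highest, and WT 1 had 46.8% of the mean of WT 2 and WT 3. AQP3 was 1.85-fold higher in MPTN24 than in WT (log2 change 0.89 ± 0.24, adjusted p = 0.027 in edgeR, quasi-likelihood test with Benjamini-Hochberg adjustment; SE after ± for log2 changes) and 1.52-fold higher without WT 1 (log2 change 0.60, adjusted p = 0.000461 in edgeR). The call was lost without MPTN 1 (0.0500079), MPTN 3 (0.0573), MPTN24 1 (0.0851) or MPTN24 3 (0.0708), with no filter on low counts (0.0729) and with only the 2 groups fitted (0.0749; edgeR adjusted p in brackets). In MPTN it was 3.45-fold lower than in WT (log2 change -1.78 ± 0.25, adjusted p = 0.000425 in edgeR) and 4.19-fold lower without WT 1 (log2 change -2.07, adjusted p = 7.52e-09 in edgeR).

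The other aquaporins stood far below AQP3 in FPKM. Of 11 examined, 4 had no count in any library and 3 were tested. AQP11, an aquaporin of intracellular membranes, was at 0.534 ± 0.113 FPKM in MPTN, 0.223 ± 0.0891 FPKM in MPTN24 and 0.182 ± 0.0503 FPKM in WT. It was called higher in MPTN than in WT (log2 change 1.43 ± 0.49, adjusted p = 0.0342 in edgeR), the opposite direction to AQP3, but the call was lost without MPTN 1 (0.0747), MPTN 2 (0.123), WT 2 (0.104) or WT 3 (0.0703) and with a replicate block (0.0564). AQP10, a channel for water and glycerol like AQP3, was at 0.405 ± 0.107 FPKM in MPTN, 0.29 ± 0.114 FPKM in MPTN24 and 0.197 ± 0.106 FPKM in WT and passed in no comparison. In MPTN24 against WT 0 of the 3 passed by edgeR, DESeq2 or limma, and 0 had an unadjusted p below 0.05, where edgeR called 23.2% of all tested genes. In MPTN against MPTN24, where it called 14.5%, 0 passed by edgeR and DESeq2, 1 had an unadjusted p below 0.05, and limma called 0 with 0.1 added to FPKM and 1 with 1 added.

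PADI3 (ENSG00000142619, chromosome 1, 17249098 to 17284233, plus strand) split the WT libraries. It stood at 6.08, 4.58 and 5.68 CPM in MPTN, 46.5, 38.4 and 39.5 CPM in MPTN24, and 4.44, 30.5 and 32.1 CPM in WT. WT 1 lay below all MPTN libraries, while WT 2 and WT 3 lay between MPTN and MPTN24, so MPTN and WT overlapped and MPTN24 was above both. WT 1 had 14.2% of the mean of WT 2 and WT 3, the lowest such share among the 6 genes. With all libraries PADI3 passed neither in MPTN24 against WT (log2 change 0.89 ± 0.64, adjusted p = 0.386 in edgeR) nor in MPTN against WT (log2 change -2.04 ± 0.67, adjusted p = 0.0576 in edgeR). Without WT 1 it was 1.32-fold higher in MPTN24 than in WT (log2 change 0.41, adjusted p = 0.0356 in edgeR) and 5.74-fold lower in MPTN than in WT (log2 change -2.52, adjusted p = 4.42e-08 in edgeR). With all libraries it was also called lower in MPTN than in WT by DESeq2 (adjusted p = 0.0057) and by edgeR on counts divided by 4 (adjusted p = 0.0488). What set WT 1 apart was not tested.

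Per length PADI3 was at 1.61 ± 0.235 FPKM in MPTN, 11.7 ± 0.97 FPKM in MPTN24 and 6.2 ± 4.38 FPKM in WT. PADI1, an epidermal deiminase encoded beside it, was at 0.487 ± 0.0744 FPKM in MPTN, 0.703 ± 0.245 FPKM in MPTN24 and 0.589 ± 0.206 FPKM in WT. S100A3, a substrate of PADI3 in the hair cuticle, was at 7.51 ± 0.314 FPKM in MPTN, 7.27 ± 0.968 FPKM in MPTN24 and 5.31 ± 0.44 FPKM in WT, while the substrate of the hair root sheath, trichohyalin (TCHH), averaged at most 0.0162 FPKM in a group. Of 7 tested genes among the other deiminases, their substrates and transglutaminases, edgeR and DESeq2 called 0 in any of the 3 comparisons, where edgeR called 14.5% (MPTN against MPTN24), 36.4% (MPTN against WT) and 23.2% (MPTN24 against WT) of all tested genes. An unadjusted p below 0.05 was met by 2 in MPTN against MPTN24, 1 in MPTN against WT and 1 in MPTN24 against WT, and limma called 0, 1 and 1 in the same order.

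UPK2 (ENSG00000110375, chromosome 11, 118925164 to 118958559, plus strand) was low in MPTN beside MPTN24 and WT. It stood at 0.588, 0.586 and 1.08 CPM in MPTN, 6.75, 7.46 and 5.4 CPM in MPTN24, and 3.27, 6.29 and 4.93 CPM in WT. MPTN lay far below both other groups, and MPTN24 and WT overlapped. UPK2 was not called in MPTN24 against WT (log2 change 0.44 ± 0.27, adjusted p = 0.28 in edgeR), nor without WT 1 (log2 change 0.22, adjusted p = 0.587 in edgeR). In MPTN it was 6.38-fold lower than in WT (log2 change -2.67 ± 0.30, adjusted p = 1.82e-05 in edgeR), from 44, 46 and 106 estimated counts in MPTN. By limma on log2 of FPKM plus 1 this change was -1.635. Per length it was at 0.739 ± 0.253 FPKM in MPTN, 6.32 ± 1.02 FPKM in MPTN24 and 4.51 ± 1.47 FPKM in WT.

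The annotated UPK2 gene overlaps 445 bases of BCL9L, a Wnt pathway gene on the opposite strand, and the library kit kept no strand, so reads there cannot be told apart. BCL9L averaged 20.3 FPKM in MPTN, 26.1 FPKM in MPTN24 and 27.4 FPKM in WT, and was lower in MPTN than in WT (log2 change -0.52 ± 0.11, adjusted p = 0.00295 in edgeR). It was also lower in MPTN than in MPTN24 (log2 change -0.39 ± 0.11, adjusted p = 0.0345 in edgeR). The BCL9L call in MPTN against MPTN24 was lost in 7 of the 19 other settings (adjusted p up to 0.133), among them those without MPTN 1, MPTN 2, MPTN 3, MPTN24 1 and MPTN24 3. Its part in the UPK2 values was not tested.

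Of the other genes of the bladder lining examined, 0 were called lower with UPK2 between MPTN and MPTN24. UPK1A, UPK3A and the keratin KRT20 had no count in any library. UPK3B, the most abundant other uroplakin, was at 2.94 ± 0.277 FPKM in MPTN, 2.38 ± 0.07 FPKM in MPTN24 and 2.6 ± 0.729 FPKM in WT and passed in no comparison. Of 9 tested genes in this list, 1 was called higher and 0 lower in MPTN than in MPTN24, where 14.5% of all genes were called in either direction. That gene was PPARG, a nuclear receptor of urothelial and fat cell differentiation, at 2.84 ± 0.439 FPKM in MPTN, 0.761 ± 0.34 FPKM in MPTN24 and 0.737 ± 0.104 FPKM in WT (log2 change 1.81 ± 0.29, adjusted p = 0.0012 in edgeR), and it was also higher in MPTN than in WT (log2 change 1.83 ± 0.29, adjusted p = 0.000291 in edgeR). By limma on log2 of FPKM plus 1 each of these PPARG changes was 1.14.

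Against WT, 2 of the 9 were higher and 2 lower in MPTN (18.3% and 18.1% of all tested genes). In MPTN24, 1 was higher and 2 lower (11.1% and 12.1%). GRHL3, a transcription factor of surface epithelia, was at 0.867 ± 0.202 FPKM in MPTN, 1.21 ± 0.165 FPKM in MPTN24 and 0.278 ± 0.0874 FPKM in WT and was higher than in WT in both MPTN (log2 change 1.51 ± 0.32, adjusted p = 0.00225 in edgeR) and MPTN24 (log2 change 2.09 ± 0.33, adjusted p = 0.000832 in edgeR). By limma on log2 of FPKM plus 1 these GRHL3 changes were smaller, at 0.54 in MPTN and 0.79 in MPTN24. FOXA1 and ELF3, epithelial transcription factors, were lower in MPTN24 than in WT (FOXA1, log2 change -1.39 ± 0.29, adjusted p = 0.00427 in edgeR; ELF3, log2 change -0.69 ± 0.16, adjusted p = 0.0082 in edgeR). They were also called lower in MPTN than in WT (FOXA1, log2 change -0.83 ± 0.28, adjusted p = 0.0327 in edgeR; ELF3, log2 change -0.44 ± 0.16, adjusted p = 0.0418 in edgeR). For FOXA1, limma on log2 of FPKM plus 1 gave -0.46 in MPTN24 and -0.30 in MPTN against WT. The call for FOXA1 in MPTN was lost in 7 of the 19 other settings (adjusted p up to 0.17), among them those without MPTN 1, MPTN 2, MPTN 3, WT 2 and WT 3. That for ELF3 in MPTN was lost in 12 of the 19 other settings (adjusted p up to 0.285), among them those without MPTN 1, MPTN 2, MPTN 3, MPTN24 1, MPTN24 2, MPTN24 3, WT 2 and WT 3. The median log2 changes of the list were 0.25 in MPTN against MPTN24, 0.15 in MPTN against WT and -0.17 in MPTN24 against WT, beside 0.01, 0.02 and 0.00 over all tested genes.

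LAPTM5 (ENSG00000162511, chromosome 1, 30732469 to 30757774, minus strand) showed the largest rise at 24 h. It stood at 2.64, 3.02 and 3.63 CPM in MPTN, 15.7, 13 and 13.5 CPM in MPTN24, and 5.19, 4.85 and 5.01 CPM in WT. The groups did not overlap, with MPTN lowest, WT a little above it and narrowly spread, and MPTN24 highest. LAPTM5 was 2.81-fold higher in MPTN24 than in WT (log2 change 1.49 ± 0.16, adjusted p = 9.05e-05 in edgeR) and 1.62-fold lower in MPTN than in WT (log2 change -0.69 ± 0.16, adjusted p = 0.00359 in edgeR), and both calls held under all 19 other settings. Its MPTN mean was 61.8% of the WT mean, beside 15.5% to 45.1% for the other 5 genes. Whether that share differs between genes was not tested. The 17 blood cell markers too low to test also had their highest summed counts in MPTN24 (0 to 9 in MPTN, 11 to 28 in MPTN24 and 1 to 17 in WT), but the ranges of MPTN24 and WT overlapped. Over the 3 MPTN24 libraries ITGAL gave 36 of these counts, CD79A 12, HBB 8 and CD3D 3, and the other markers none. PTPRC, CD3E and TYROBP were at 0 throughout, and the part of these markers in LAPTM5 was not tested. Per length LAPTM5 was at 1.33 ± 0.169 FPKM in MPTN, 5.85 ± 0.494 FPKM in MPTN24 and 2 ± 0.0824 FPKM in WT.

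The relatives of LAPTM5 were more abundant. LAPTM4A, a lysosomal membrane protein, was at 151 ± 7.52 FPKM in MPTN, 119 ± 5.81 FPKM in MPTN24 and 126 ± 11.2 FPKM in WT. It was called higher in MPTN than in MPTN24 (log2 change 0.28 ± 0.08, adjusted p = 0.0355 in edgeR). The LAPTM4A call was lost in 6 of the 19 other settings (adjusted p up to 0.151), among them those without MPTN 1, MPTN 2, MPTN24 1, MPTN24 2 and MPTN24 3. LAPTM4B, its close relative, was at 45.9 ± 4.8 FPKM in MPTN, 73.2 ± 4.19 FPKM in MPTN24 and 70.8 ± 4.8 FPKM in WT, and was lower in MPTN than in MPTN24 (log2 change -0.77 ± 0.10, adjusted p = 0.000185 in edgeR) and than in WT (log2 change -0.78 ± 0.10, adjusted p = 4.03e-05 in edgeR).

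NEDD4, a ubiquitin ligase that binds LAPTM5, was read with other ligases of its family. Of 7 genes of the LAPTM and NEDD4 families, 0 were called higher and 4 lower in MPTN than in WT, 0 and 3 in MPTN24 than in WT, and 1 and 1 in MPTN than in MPTN24. The shares of all tested genes called higher and lower were 18.3% and 18.1%, 11.1% and 12.1%, and 7.85% and 6.7% in these comparisons. NEDD4 was lower in MPTN (log2 change -0.67 ± 0.13, adjusted p = 0.00104 in edgeR) and in MPTN24 (log2 change -0.74 ± 0.13, adjusted p = 0.00147 in edgeR). WWP1 was lower in MPTN (log2 change -0.77 ± 0.14, adjusted p = 0.000615 in edgeR) and called lower in MPTN24 (log2 change -0.40 ± 0.14, adjusted p = 0.0498 in edgeR). The WWP1 call in MPTN24 was lost in 12 of the 19 other settings (adjusted p up to 0.218), among them those without MPTN 1, MPTN 2, MPTN 3, MPTN24 1, MPTN24 2, MPTN24 3, WT 2 and WT 3. NEDD4L was lower in MPTN (log2 change -0.58 ± 0.10, adjusted p = 0.00062 in edgeR) and called lower in MPTN24 (log2 change -0.51 ± 0.10, adjusted p = 0.00366 in edgeR). The NEDD4L call in MPTN24 was lost with limma on FPKM plus 0.1 (0.0721) and with limma on FPKM plus 1 (0.0718).

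HCLS1 (ENSG00000180353, chromosome 3, 121631399 to 121660927, minus strand) was already high in WT. It stood at 6.53, 7.97 and 7.07 CPM in MPTN, 28.7, 28.2 and 27.6 CPM in MPTN24, and 29.6, 28.7 and 29.3 CPM in WT. MPTN24 and WT overlapped at their edges, and MPTN lay far below both. MPTN24 against WT gave a log2 change of -0.05 ± 0.11 (adjusted p = 0.774 in edgeR), and its sign turned with upper-quartile scaling (log2 change 0.004). MPTN was 4.07-fold lower than WT (log2 change -2.02 ± 0.11, adjusted p = 3.68e-08 in edgeR), and over the 19 other settings this log2 change ran from -2.10 to -1.73. Per length HCLS1 was at 3.48 ± 0.407 FPKM in MPTN, 13.5 ± 0.799 FPKM in MPTN24 and 13.8 ± 0.681 FPKM in WT.

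Cortactin (CTTN), the widely expressed relative of HCLS1, was at 165 ± 25.7 FPKM in MPTN, 169 ± 15.1 FPKM in MPTN24 and 166 ± 5.1 FPKM in WT and passed in no comparison. Of 13 genes of cortactin, its partners and the Arp2/3 complex, 1 was higher and 1 lower in MPTN than in MPTN24, 2 and 1 in MPTN than in WT, and 1 and 1 in MPTN24 than in WT. Among all tested genes 14.5%, 36.4% and 23.2% were called in either direction in MPTN against MPTN24, MPTN against WT and MPTN24 against WT. ACTR2, a core subunit of Arp2/3, was lower in MPTN than in MPTN24 (log2 change -0.62 ± 0.11, adjusted p = 0.00249 in edgeR) and than in WT (log2 change -0.89 ± 0.11, adjusted p = 4.79e-05 in edgeR). ARPC1B, another subunit, was higher than in WT in MPTN (log2 change 0.56 ± 0.09, adjusted p = 0.000237 in edgeR) and in MPTN24 (log2 change 0.50 ± 0.09, adjusted p = 0.00151 in edgeR). ARPC5 was called higher in MPTN than in MPTN24 (log2 change 0.34 ± 0.09, adjusted p = 0.0211 in edgeR). In FPKM it was at 82.6 ± 4.84 FPKM in MPTN, 38.8 ± 25.2 FPKM in MPTN24 and 47.1 ± 16.6 FPKM in WT, and limma gave log2 changes of 1.27 and 1.24 for MPTN against MPTN24 with 0.1 and 1 added, and 0.88 and 0.86 for MPTN against WT, none of them called. The first ARPC5 call was lost in 6 of the 19 other settings (adjusted p up to 0.116), among them those without MPTN 1, MPTN 2, MPTN24 1 and MPTN24 3. It was also called higher in MPTN than in WT (log2 change 0.27 ± 0.09, adjusted p = 0.0278 in edgeR). The second ARPC5 call was lost in 7 of the 19 other settings (adjusted p up to 0.169), among them those without MPTN 1, MPTN 2 and WT 2. WASL, an activator of Arp2/3, was called lower in MPTN24 than in WT (log2 change -0.45 ± 0.14, adjusted p = 0.0309 in edgeR). The WASL call was lost in 6 of the 19 other settings (adjusted p up to 0.145), among them those without MPTN24 1, MPTN24 3, WT 2 and WT 3.

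CORO1A (ENSG00000102879, chromosome 16, 30182827 to 30189076, plus strand) had the smallest of the 6 falls. It stood at 13.7, 13.1 and 17.8 CPM in MPTN, 48, 40.2 and 45.8 CPM in MPTN24, and 35.9, 29.8 and 33.2 CPM in WT. The groups did not overlap, with MPTN lowest and MPTN24 highest. CORO1A was 1.36-fold higher in MPTN24 than in WT (log2 change 0.44 ± 0.13, adjusted p = 0.0272 in edgeR), a call lost without MPTN24 1 (0.116), MPTN24 3 (0.0918), WT 2 (0.105) or WT 3 (0.0625). It was 2.22-fold lower in MPTN than in WT (log2 change -1.15 ± 0.13, adjusted p = 2.29e-05 in edgeR). Per length it was at 8.04 ± 0.319 FPKM in MPTN, 24.9 ± 1.93 FPKM in MPTN24 and 16.6 ± 2.07 FPKM in WT. A pseudogene copy is annotated on the same chromosome (29449191 to 29449625) with 0 to 4 counts per library, and how reads shared with it were counted is not given in the sources used here.

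The other coronins, regulators of actin turnover in many cell types, were also read. Between MPTN and MPTN24, 0 of 6 passed by edgeR, DESeq2 or limma, and 0 had an unadjusted p below 0.05, where 14.5% of all tested genes were called by edgeR. Against WT, 4 were called higher and 1 lower in MPTN (18.3% and 18.1% of all tested genes), and 4 and 1 in MPTN24 (11.1% and 12.1%). CORO1B, the most abundant in MPTN and MPTN24, was at 161 ± 24 FPKM in MPTN, 151 ± 17.1 FPKM in MPTN24 and 84.5 ± 7.46 FPKM in WT and was higher than in WT in MPTN (log2 change 0.75 ± 0.11, adjusted p = 0.000167 in edgeR) and in MPTN24 (log2 change 0.76 ± 0.11, adjusted p = 0.000602 in edgeR). CORO2B was higher than in WT in MPTN (log2 change 0.96 ± 0.14, adjusted p = 0.000145 in edgeR) and in MPTN24 (log2 change 1.10 ± 0.14, adjusted p = 0.000283 in edgeR). CORO1C was lower in MPTN than in WT (log2 change -0.40 ± 0.09, adjusted p = 0.00428 in edgeR), and CORO6 was called higher in MPTN24 than in WT (log2 change 0.46 ± 0.12, adjusted p = 0.0132 in edgeR). The CORO6 call was lost without MPTN24 3 (0.0744).

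Other actin regulators named for blood cells included both higher and lower ones in MPTN. Of 14 such genes 9 were tested, of which 1 was higher and 1 lower in MPTN than in MPTN24, 3 and 1 in MPTN than in WT, and 3 and 0 in MPTN24 than in WT, where 14.5%, 36.4% and 23.2% of all tested genes were called in either direction. LCP1, an actin-bundling protein, was at 24.2 ± 1.67 FPKM in MPTN, 11.6 ± 0.279 FPKM in MPTN24 and 3.97 ± 0.459 FPKM in WT, higher in MPTN than in MPTN24 (log2 change 1.00 ± 0.11, adjusted p = 8.19e-05 in edgeR) and than in WT (log2 change 2.49 ± 0.12, adjusted p = 1.09e-08 in edgeR), and higher in MPTN24 than in WT (log2 change 1.49 ± 0.12, adjusted p = 8.77e-06 in edgeR). ARHGDIB, a regulator of small GTPases, was at 107 ± 6.03 FPKM in MPTN, 142 ± 5 FPKM in MPTN24 and 144 ± 10.1 FPKM in WT, lower in MPTN than in MPTN24 (log2 change -0.51 ± 0.09, adjusted p = 0.00164 in edgeR) and than in WT (log2 change -0.57 ± 0.09, adjusted p = 0.000186 in edgeR). RAC2, a small GTPase of leukocytes, was higher than in WT in MPTN (log2 change 0.53 ± 0.10, adjusted p = 0.00104 in edgeR) and in MPTN24 (log2 change 0.73 ± 0.10, adjusted p = 0.000456 in edgeR). VAV1, an exchange factor, was higher than in WT in MPTN (log2 change 0.41 ± 0.11, adjusted p = 0.00953 in edgeR) and called higher in MPTN24 (log2 change 0.35 ± 0.11, adjusted p = 0.0345 in edgeR). The VAV1 call in MPTN24 was lost in 8 of the 19 other settings (adjusted p up to 0.155), among them those without MPTN 1, MPTN 2, MPTN24 1, MPTN24 3, WT 2 and WT 3.

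**Figure D2:**
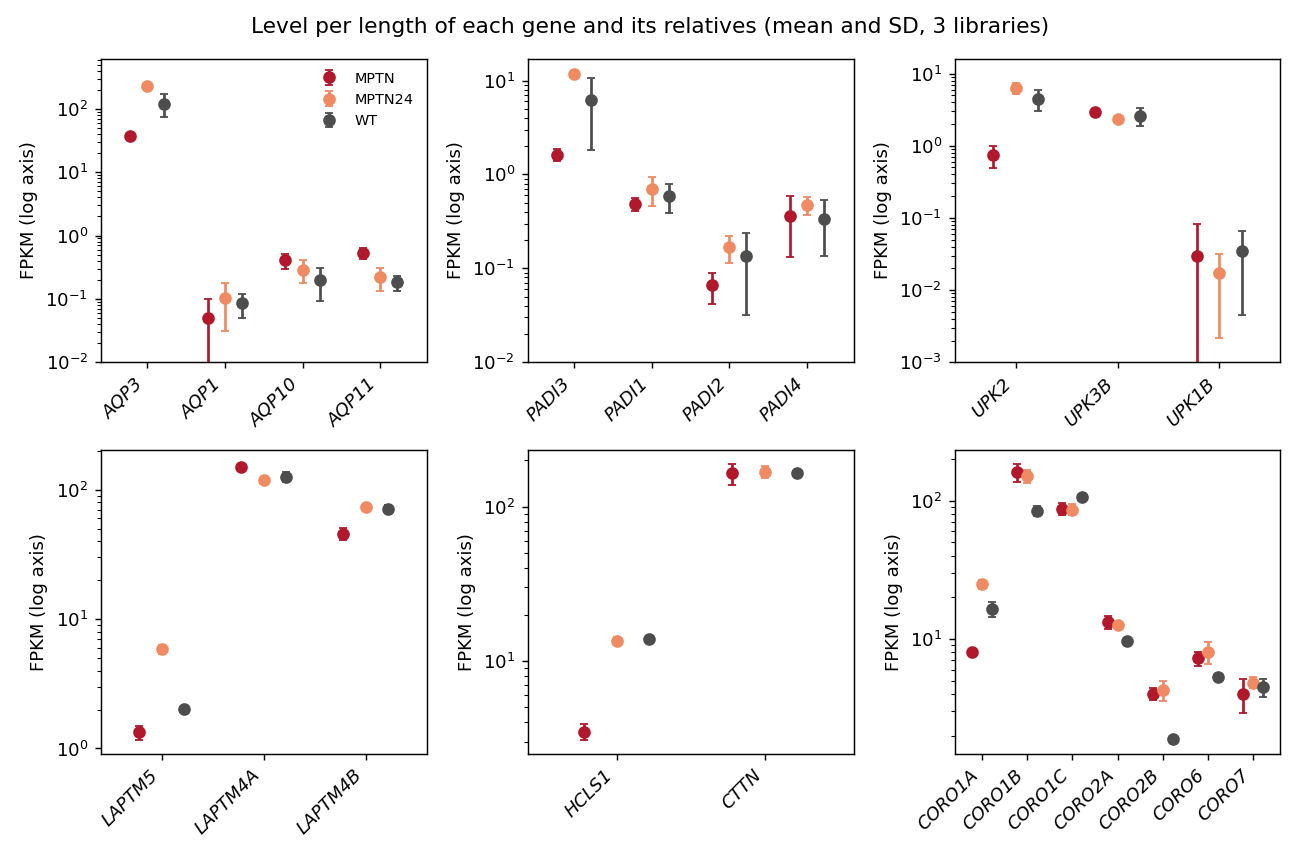
Level in FPKM (log axis) of each of the 6 genes, leftmost in its panel, and of its relatives, as the mean and SD of 3 libraries in MPTN, MPTN24 and WT; SD bars that reach 0 run to the panel's lower edge. AQP3 and PADI3 lie above their relatives, LAPTM5 and HCLS1 lie below theirs, and CORO1A lies below CORO1B and CORO1C.

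Late genes of squamous differentiation were read beside AQP3 and PADI3. Of 25 genes 17 were tested, with 1 called higher and 3 lower in MPTN than in MPTN24, 1 and 3 in MPTN than in WT, and 2 and 0 in MPTN24 than in WT. Over the same comparisons 14.5%, 36.4% and 23.2% of all tested genes were called, so the shares in the comparisons with WT were below those of all genes. In MPTN against MPTN24, 7.85% of all tested genes were called higher and 6.7% lower, and the list's share called lower was above that. Whether these shares differ was not tested. ECM1, an extracellular matrix protein of skin, was at 11.4 ± 1.57 FPKM in MPTN, 21 ± 1.12 FPKM in MPTN24 and 16.5 ± 3.55 FPKM in WT, lower in MPTN than in MPTN24 (log2 change -0.95 ± 0.16, adjusted p = 0.0017 in edgeR) and than in WT (log2 change -0.64 ± 0.16, adjusted p = 0.00672 in edgeR). EVPL, which encodes envoplakin of the cornified envelope, was at 5.57 ± 0.317 FPKM in MPTN, 8.75 ± 0.42 FPKM in MPTN24 and 5.58 ± 1.37 FPKM in WT, lower in MPTN than in MPTN24 (log2 change -0.71 ± 0.15, adjusted p = 0.00622 in edgeR) and called higher in MPTN24 than in WT (log2 change 0.60 ± 0.15, adjusted p = 0.0116 in edgeR). The EVPL call in MPTN24 against WT was lost without MPTN24 1 (0.0553) or WT 2 (0.0519). PPL, its partner periplakin, was called higher in MPTN24 than in WT (log2 change 0.57 ± 0.15, adjusted p = 0.0127 in edgeR). The PPL call was lost without MPTN24 3 (0.0576). TMPRSS11E, a surface protease of stratified epithelia, was lower in MPTN than in WT (log2 change -1.56 ± 0.31, adjusted p = 0.00157 in edgeR). By limma on log2 of FPKM plus 1 the TMPRSS11E change was -0.66.

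KRT13, a keratin of the oral lining, was near the floor at 0.0283 ± 0.0283 FPKM in MPTN, 0.378 ± 0.266 FPKM in MPTN24 and 0.184 ± 0.0519 FPKM in WT. It was called lower in MPTN than in MPTN24 (log2 change -3.59 ± 0.88, adjusted p = 0.015 in edgeR). Without MPTN 3 it was -4.75, without MPTN24 3 it was -2.93, and limma gave -1.79 and -0.41 with 0.1 and 1 added to FPKM. The first KRT13 call was lost without MPTN 2 (0.0564) or MPTN24 3 (0.102). It was also called lower in MPTN than in WT (log2 change -2.61 ± 0.87, adjusted p = 0.0295 in edgeR). This was -3.77 without MPTN 3, and -1.16 and -0.20 by limma. The second KRT13 call was lost without MPTN 1 (0.0558), MPTN 2 (0.0809), MPTN24 3 (0.0509) or WT 2 (0.0807) and with limma on FPKM plus 1 (0.168). SPRR1B, a precursor of the cornified envelope, was called higher in MPTN than in MPTN24 (log2 change 0.70 ± 0.20, adjusted p = 0.0337 in edgeR). The first SPRR1B call was lost without MPTN 1 (0.0721), MPTN 2 (0.0916), MPTN 3 (0.0904), MPTN24 1 (0.106) or MPTN24 2 (0.142). It was also called higher in MPTN than in WT (log2 change 0.58 ± 0.20, adjusted p = 0.0354 in edgeR). The second SPRR1B call was lost in 6 of the 19 other settings (adjusted p up to 0.135), among them those without MPTN 1, MPTN 2, MPTN 3, WT 2 and WT 3. The median log2 change of the 17 was -0.07 in MPTN against MPTN24, beside 0.01 over all tested genes.

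**Figure D3:**
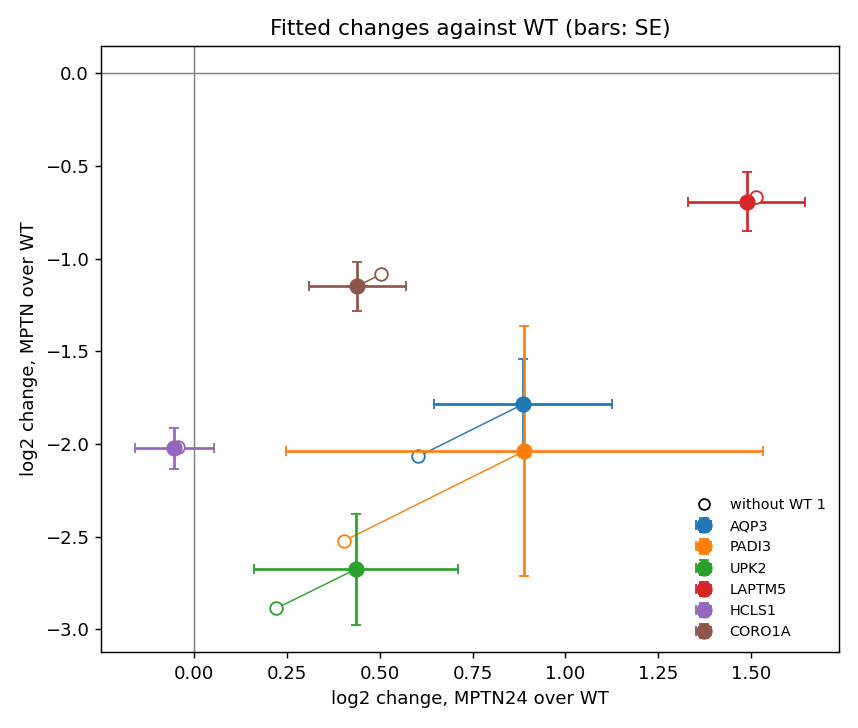
Fitted log2 change of MPTN24 over WT (horizontal) and of MPTN over WT (vertical), filled points with SE from all 9 libraries and open points without WT 1. LAPTM5 lies farthest right at 1.49 and HCLS1 near 0 at -0.05, and leaving out WT 1 moves AQP3, PADI3 and UPK2 down and left.

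Pearson's r between pairs of the 6 genes on log2 CPM ran from 0.73 (PADI3 with HCLS1 and LAPTM5 with HCLS1) to 0.96 (AQP3 with UPK2). This describes 9 libraries in 3 groups, and each gene had been picked for the same fall. For each gene the 3 most alike others were taken among 588 genes with at least 1 CPM in the highest group and a change of 2-fold or more between MPTN and MPTN24. This choice rests on the same fall, so low MPTN levels and high r in these genes were largely fixed in advance. Closest to AQP3 were AC004816.1, a long non-coding RNA (r = 0.985), FKBP10, a chaperone of collagen (r = 0.981), and REXO5, an RNA exonuclease (r = 0.974). FKBP10 averaged 5.28 CPM in MPTN, 14.4 CPM in MPTN24 and 10.1 CPM in WT.

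PADI3 was most like CRABP2, a carrier of retinoic acid (r = 0.962), ADAMTSL1, a matrix glycoprotein (r = 0.956), and AC069360.1 (r = 0.955). CRABP2 averaged 23.6 CPM in MPTN, 59.6 CPM in MPTN24 and 56.7 CPM in WT, and was at 25.5 CPM in WT 1, which was low for PADI3 too. That shared low level in WT 1 was largely fixed by choosing genes for their correlation with PADI3. UPK2 was most like AC007342.4 (r = 0.978), REXO5 (r = 0.977) and SH3BGRL (r = 0.970), which averaged 0.221 CPM in MPTN, 1.61 CPM in MPTN24 and 1.45 CPM in WT.

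LAPTM5 was most like NR1H3, the oxysterol receptor LXR alpha (r = 0.974), LCK, a kinase known from T cells (r = 0.969), and SEMA4A, a membrane semaphorin (r = 0.960). LCK averaged 13.7 CPM in MPTN, 31.8 CPM in MPTN24 and 18.7 CPM in WT, while the T cell marker CD3E had no count. HCLS1 was most like SYN1, a protein of synaptic vesicles (r = 0.993), CYP1A1, a cytochrome P450 that oxidises foreign compounds (r = 0.984), and ALDH1A3, an enzyme that makes retinoic acid (r = 0.976). SYN1 had no count in MPTN and averaged 1.22 CPM in MPTN24 and 1.54 CPM in WT. ALDH1A3 averaged 18.2 CPM in MPTN, 86.4 CPM in MPTN24 and 73.5 CPM in WT. CORO1A was most like SEMA4A (r = 0.982), the histone variant gene MACROH2A2 (r = 0.980) and ANXA6, a membrane-binding annexin (r = 0.979), and SEMA4A averaged 9.17 CPM in MPTN, 23.1 CPM in MPTN24 and 15.3 CPM in WT.

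**Figure D4:**
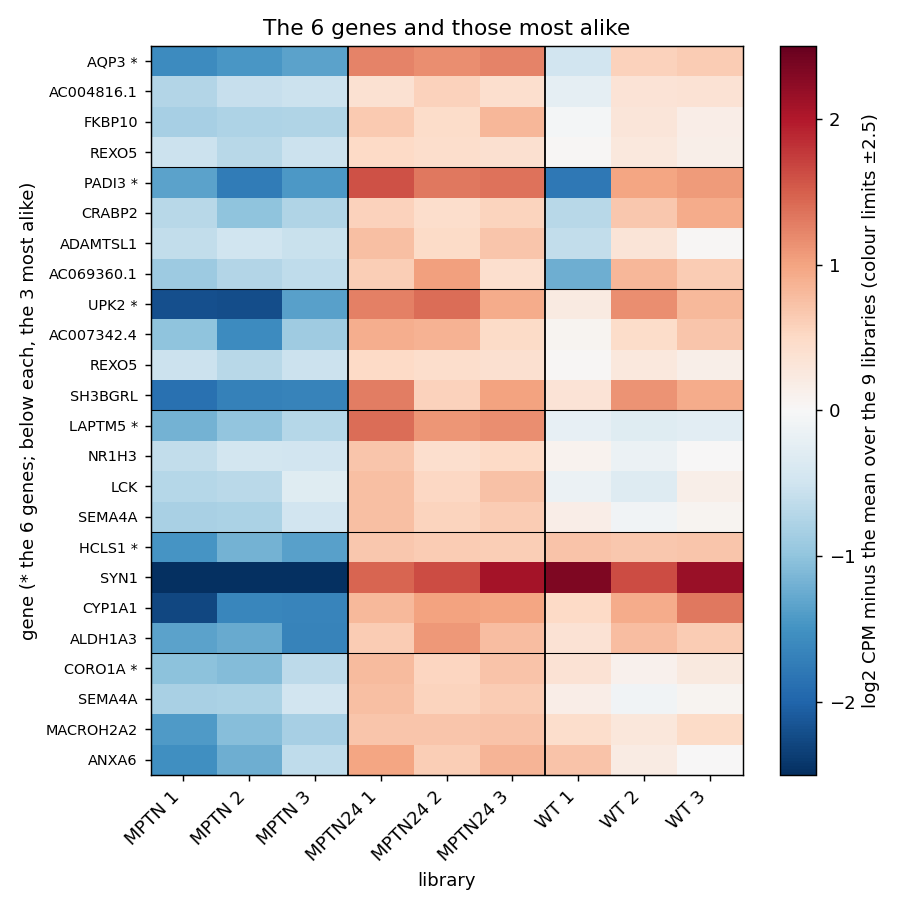
Log2 CPM minus the gene's mean over the 9 libraries for the 6 genes (starred) and, below each, the 3 genes most like it, by library in MPTN, MPTN24 and WT. MPTN is below the mean in every row drawn, which the choice of genes largely fixed. In the PADI3 block WT 1 is below the mean too, which choosing genes by their correlation with PADI3 largely fixed.

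Of 31 tested genes within 100 kb of the 6, 0 were called higher and 4 lower in MPTN than in MPTN24, where 7.85% and 6.7% of all tested genes were. These were NOL6 (log2 change -0.70 ± 0.14, adjusted p = 0.00429 in edgeR) and ANKRD18B (log2 change -0.76 ± 0.17, adjusted p = 0.00846 in edgeR) beside AQP3, BCL9L beside UPK2, with the values above, and GDPD3 beside CORO1A (log2 change -1.22 ± 0.37, adjusted p = 0.0422 in edgeR). The call for GDPD3 was lost in 11 of the 19 other settings (adjusted p up to 0.184), among them those without MPTN 1, MPTN 2, MPTN 3, MPTN24 2, MPTN24 3, WT 2 and WT 3. Against WT, 2 of the 31 were higher and 6 lower in MPTN (18.3% and 18.1% of all tested genes), and 4 higher and 2 lower in MPTN24 (11.1% and 12.1%). These neighbours were chosen after their values were seen, as the called ones among all 31. Of the 3 tested beside PADI3 and the 1 beside LAPTM5, 0 were called by edgeR in any comparison.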

How the data were processed

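RNA from 9 libraries of the HSC-3 line (3 each of MPTN, MPTN24 and WT, grouped by their labels) had been sequenced with a kit that kept no strand, per the labels. The authors deposited estimated counts per gene, which are whole numbers, and FPKM values in a second set of columns. The FPKM unit was inferred from the values. Over 10593 genes, each value's ratio of count to FPKM was compared with 1 constant per gene and 1 per library. Of these values, 82.6% lay within 5%, a check that cannot tell FPKM from another scaling by length and depth. A count of 4 was met more often (6716 times) than 3 (4548) or 5 (3190), so 1 read pair may stand as several counts. The submitters' processing notes name CASAVA 1.8, Trimmomatic, FastQC, HISAT2, StringTie, edgeR and GRCh38; their order, settings and annotation are not given in the sources used here.

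Counts were tested with edgeR 4.0.16 in R 4.3.3 (TMM scaling, quasi-likelihood test, all 9 libraries in 1 fit with group as the term, genes kept by a minimum count of 10 and a minimum total of 15), with Benjamini-Hochberg adjustment over all 16990 tested genes and a threshold of 0.05. DESeq2 1.42.0 and limma 3.58.1 on log2 of the deposited FPKM plus 0.1 or 1 were among 19 alternatives, which also held other scalings, filters, a replicate block, counts divided by 4 and each library left out. The fit was tested on simulated data. Depth was 60383313 to 98890929 counts per library. The number of value columns not used was 0.

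The 6 genes and the 10 lists of related genes (129 genes, 82 tested) were chosen with earlier results of these data known. Named genes were the 6, the 3 most correlated with each (log2 CPM, prior count 2), up to 3 called genes with the largest change per list and comparison, and the most abundant relatives. Genes printed beyond that rule were chosen after their values were seen. Over 9 pairs of libraries with the same number, deviations from the group means correlated at -0.03 to 0.07, so the numbers were not taken to pair libraries.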

Additional observations from a re-analysis of the deposited data

How the results depend on the processing

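For LAPTM5, HCLS1, UPK2, CORO1A and AQP3 the lower level in MPTN than in WT was called under all 19 other settings, with log2 changes under left-out libraries of -0.824 to -0.59, -2.102 to -1.959, -3.038 to -2.44, -1.299 to -1.066 and -2.066 to -1.596. The widest other moves came with limma on log2 of FPKM plus 1, which by construction shrinks changes of genes with low FPKM: in MPTN against WT it gave -1.635 for UPK2, -1.178 for PADI3, -0.366 for LAPTM5, -1.729 for HCLS1, -0.952 for CORO1A and -1.565 for AQP3 (-2.675, -2.037, -0.692, -2.023, -1.148 and -1.785 in edgeR), so that HCLS1 and not UPK2 had the largest difference. With 0.1 added instead, limma gave -1.586 for AQP3 and -1.442 for PADI3 in MPTN against WT, so these 2 also moved with the smaller addition. AQP3 in MPTN24 against WT was no longer called with no filter (log2 change 0.868) or with only the 2 groups fitted (0.888), and ran from 0.604 to 1.074 with single libraries left out. CORO1A in MPTN24 against WT ran from 0.371 to 0.532 and PADI3 from 0.405 to 1.243. HCLS1 in MPTN24 against WT turned sign with upper-quartile scaling (0.004). PADI3 in MPTN against WT became called with DESeq2 (-2.042) and with counts divided by 4 (-2.035), and ran from -2.521 to -1.682. Called genes ran from 1310 to 3592 in MPTN against MPTN24 (2472 with all libraries) and from 1957 to 4821 in MPTN24 against WT (3936 with all libraries). The upper end of both ranges came without WT 1. Among the 82 tested related genes, 8 were higher and 7 lower in MPTN than in MPTN24, where 7.85% and 6.7% of all tested genes were. These counts ran from 3 to 9 and from 6 to 11, and 11 were lower with only the 2 groups fitted. The 15 higher in MPTN than in WT (18.3% of all tested genes) ran from 9 to 16. The 11 lower in MPTN24 than in WT (12.1% of all tested genes) ran from 5 to 16, and limma gave 5 with 0.1 added and 5 with 1 added. Without WT 1, 11 related genes were lower in MPTN than in MPTN24 and 16 in MPTN24 than in WT. In MPTN against WT, 22 were lower without WT 1 and 16 with all libraries, where 18.1% of all tested genes were. The causes were not tested. With the replicate block, called genes numbered 2503 in MPTN against MPTN24, 6183 in MPTN against WT and 3987 in MPTN24 against WT, and AQP3 in MPTN24 against WT gave a log2 change of 0.945; the block changed no call of the 6 genes. Of called genes, 54.0% were higher in MPTN than in MPTN24 (67.8% and 69.3% by limma with 0.1 and 1 added), 50.4% in MPTN than in WT (66.4% and 66.3%), and 47.9% in MPTN24 than in WT (65.5% and 65.1%, and 59.3% with upper-quartile scaling). The median log2 change of all genes in MPTN against WT was 0.02, and 0.12 by limma with 0.1 added.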
